A study of Mus musculus with 64 samples.

Results

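The response of mouse embryonic stem cells to the loss of RPB2 or RPB6 was compared with the response to the loss of RPB1, RPB5 or RPB8, all 5 of them subunits of RNA polymerase II (Pol II), over 20 of the 64 RNA sequencing libraries of the study. V6.5 embryonic stem cells carried a degron tag on 1 subunit per line, and each of these 5 lines was sequenced untreated and after 12 h of 500 µM indole-3-acetic acid (IAA), with 2 libraries per group. Per the labels' protocols, all cells grew with 3 µM CHIR99021 and 0.5 µM PD0325901, inhibitors of GSK3 and MEK, and received doxycycline at 2 µg/ml for 12 h to induce OsTir1, the plant receptor through which IAA destroys the tagged protein. A dose of 1 µg/ml doxycycline stands in the series text instead. S2 cells of the fly were added at 10% before extraction, and the 12 h libraries were made from poly(A) RNA. Neither whether a line is 1 clone nor whether the 2 libraries of a group stem from different cultures is given in the labels, so the p-values reflect the spread between these particular libraries, which may be technical.

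The lines were grouped on their measured 12 h responses: RPB2 and RPB6 (8 libraries) were set against RPB1, RPB5 and RPB8 (12 libraries) because their expression changes looked alike in these same data. The difference examined is the mean log2 response of RPB2 and RPB6 minus the mean log2 response of RPB1, RPB5 and RPB8, where a response is IAA minus untreated. Since the groups were chosen by that readout, the difference is given as a description with its standard error and without p-values. Where genes are counted as called, higher or lower in it, the threshold of the other tests only marks genes whose difference was large for its spread; these counts are a description and nothing is read from them. Tests are given for each line's own response against its untreated cells, for the 1 h libraries and for lines outside the comparison. Differences between lines on the same side are tested gene by gene, over lines that were put together for likeness in the same values. A gene was called where edgeR's quasi-likelihood test gave a Benjamini-Hochberg adjusted p of at most 0.05 over all genes tested, and "rose" or "fell" is used of called changes of a line.

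Pol II makes all mRNA precursors in the nucleus. RPB1 and RPB2 are its largest subunits and form the catalytic cleft between them, while RPB5, RPB6 and RPB8 are small subunits that Pol I and Pol III contain as well. The sides of this comparison therefore do not follow that division, since each side holds at least 1 subunit of either kind. The mRNAs of a cell differ widely in how long they last, and sequencing counts report shares of a library. Fewer cells and less RNA per cell cannot be told apart in bulk samples, and a fall of all mRNAs together cannot be seen in these counts, because the fly reads were not used here.

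Total counts of the 20 libraries ran from 3399838 to 6998312. The libraries of RPB2 and RPB6 in IAA stood apart in composition: their TMM scaling factors (edgeR's correction for libraries dominated by few genes) were 0.619 to 0.755, against 0.977 to 1.26 in the other 16. Genes with at least 1 count numbered 18396 and 18352 in RPB2 in IAA and 19308 and 18975 in RPB6 in IAA, fewer than the 20414 to 21281 of the untreated libraries. They numbered 27012 and 27121 in RPB1 in IAA, 23815 and 24082 in RPB5 and 22020 and 21350 in RPB8, all above the untreated range. Mitochondrial mRNAs, which Pol II does not make, took 1.04% to 1.69% of counts untreated and 3.25% to 3.44% in RPB2, 2.66% to 2.73% in RPB6, 3.61% to 3.80% in RPB8, 2.04% to 2.30% in RPB1 and 2.19% to 2.27% in RPB5 in IAA. On the TMM scale the mRNA of the tagged subunit rose in its own line in all 5. Polr2a rose in RPB1 (log2 change 2.50 ± 0.10 SE, from 376 and 368 CPM to 2112 and 2085). The others were Polr2b in RPB2 (1.40), Polr2e in RPB5 (0.53), Polr2f in RPB6 (1.55) and Polr2h in RPB8 (0.90). With mitochondrial scaling, described below, the change was −0.73 for Polr2b, −0.59 for Polr2h and −0.33 for Polr2f, the last of which did not pass the test. That scaling moved the median response of RPB5 over all genes from 0.037 to −0.46, so the small rise of Polr2e rests on the scale too. These mRNA values do not check whether the protein was degraded.

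Of 16806 genes tested, 5240 were higher in RPB2 and RPB6 (31.2%) and 6745 were lower (40.1%) in the difference that chose the sides, so nothing is read from the size of these counts. In 4422 genes (26.3%) the difference was called and both responses of RPB2 and RPB6 lay above all 3 of the other lines, and in 5640 (33.6%) both lay below. Over all genes tested the distribution was lopsided: 5514 of the lower genes but 3099 of the higher genes differed by more than 2-fold. Among the 11485 genes at a mean level of 5 CPM or more, 42.1% were higher and 41.6% lower, with a median difference of 0.0098. The median difference over all genes was −0.47 on the log2 scale with TMM and −0.39 with RLE size factors, but −1.17 with total counts and −1.58 with scaling to mitochondrial mRNAs. The higher genes made up 43.7% of those called with TMM, 45.9% with RLE, 23.1% with total counts and 6.84% with mitochondrial mRNAs. Differences below are relative to the TMM scale.

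**Figure D1:**
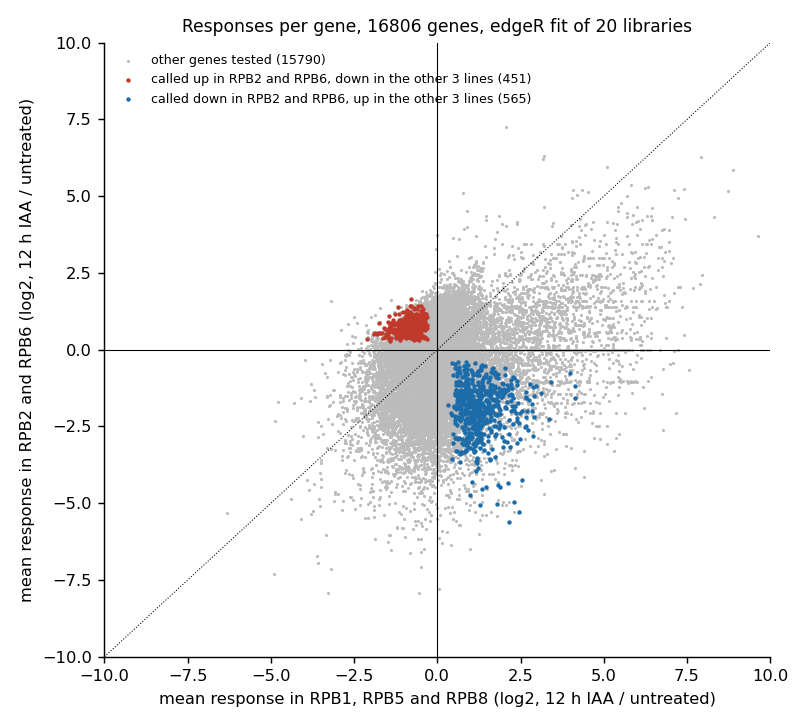
Each point is a gene tested in the 20 libraries, with its mean log2 response in RPB1, RPB5 and RPB8 on the x axis and its mean log2 response in RPB2 and RPB6 on the y axis, both on the TMM scale. The genes that moved in opposite directions are coloured, 451 in the upper left and 565 in the lower right, and scaling to mitochondrial mRNAs leaves 0 of the former kind.

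Each line's own response was broad on both sides. RPB2 had 4620 genes up (27.5%) and 6337 down (37.7%), and RPB6 had 4540 up (27%) and 6124 down (36.4%). RPB1 had 5979 up (35.6%) and 5473 down (32.6%), RPB5 had 5200 up (30.9%) and 5125 down (30.5%), and RPB8 had 5419 up (32.2%) and 5350 down (31.8%). The balance of rises and falls depended on the scaling: RPB2 had 5482 up and 5288 down with RLE and 2478 up and 9040 down with total counts. RPB6 had 5065 and 5558, and 2598 and 8371. RPB8 had 6060 up and 4723 down with RLE and 4729 and 6042 with total counts, and RPB1 had 7018 and 4462, and 7292 and 4233. With mitochondrial mRNAs falls outnumbered rises in all 5 lines. The sides rest on the likeness of these same responses, so what follows restates that likeness as a description. RPB2 and RPB6 called 8854 genes in the same direction and 186 in opposite directions. RPB1 and RPB6 called 3587 in the same direction and 3403 in opposite directions. Across genes, which are not independent replicates, Pearson's r of the responses was 0.68 for RPB2 with RPB6, 0.68 to 0.81 among RPB1, RPB5 and RPB8, and 0.15 to 0.33 for pairs across the sides. The difference arose in the treated cells: among 11485 genes whose mean level was at least 5 CPM (counts of a gene divided by the TMM-scaled library size), the 2 sides lay within 0.5 log2 of each other in 96.0% of genes untreated and in 21.1% in IAA.

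Only a minority of genes moved in opposite directions in all 5 lines. There were 451 genes that rose in both RPB2 and RPB6 and fell in each of RPB1, RPB5 and RPB8 (2.68% of those tested), and 565 that fell in both and rose in each of the other 3 (3.36%). Another 2099 moved the same way in all 5 lines, 537 up and 1562 down. The counts of opposite genes depended on scaling: they were 432 and 603 with RLE, 85 and 886 with total counts, and 0 and 263 with mitochondrial mRNAs, of which 304 and 475, 61 and 527, and 0 and 80 were among those found with TMM.

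Lin28a (chr4:134003330-134018841, minus strand, mm10), which encodes an RNA-binding protein that blocks maturation of let-7 microRNAs, was among the genes that rose on one side and fell on the other. Its level was 266 and 270 CPM in untreated RPB2 and 536 and 523 in IAA, and 211 and 207 CPM in untreated RPB6 and 729 and 739 in IAA. It was 239 and 244 CPM in untreated RPB1 and 83.8 and 91.3 in IAA, 217 and 219 in RPB5 and 98.5 and 104 in IAA, and 208 and 197 in RPB8 and 101 and 99.9 in IAA. Untreated RPB6 lay within the range of RPB1, RPB5 and RPB8 and untreated RPB2 somewhat above it, and in IAA all 4 libraries of RPB2 and RPB6 lay above all 6 of the others. The log2 changes were 0.98 in RPB2 (edgeR adjusted p = 1.09e-12) and 1.81 in RPB6 (2e-18), against −1.46 in RPB1 (9.58e-16), −1.11 in RPB5 (9.09e-13) and −1.01 in RPB8 (9.66e-12). The difference between the sides was 2.59 ± 0.07 (SE), and 1.44 with mitochondrial scaling, under which RPB2 fell (−1.13) and RPB6 did not pass the test (−0.07).

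Hells (chr19:38930915-38971051, plus strand), a helicase of the SNF2 family needed for DNA methylation, differed by 2.92 ± 0.10. It stood at 369 and 369 CPM in untreated RPB2 and at 448 and 389 in IAA, and at 383 and 349 in untreated RPB6 and 617 and 555 in IAA. It went from 406 and 418 CPM to 117 and 112 in RPB1, from 498 and 363 to 55.6 and 60 in RPB5 and from 397 and 466 to 68.6 and 62.2 in RPB8. The fall was 1.85 to 2.89 on the log2 scale in those 3 lines, the rise in RPB6 was 0.68 (edgeR adjusted p = 1.24e-06), and RPB2 did not pass the test (0.18, adjusted p = 0.14). With mitochondrial scaling Hells fell in all 5 lines, by 1.93 in RPB2 and 1.20 in RPB6 and by 2.39 or more in the others. Pola1, the catalytic subunit of DNA polymerase alpha, was at 114 and 110 CPM in untreated RPB2 and 165 and 162 in IAA, and at 134 and 124 in untreated RPB6 and 209 and 171 in IAA. In IAA it was at 27.4 and 27.9 CPM in RPB1, 48.4 and 50.1 in RPB5 and 55.2 and 42.9 in RPB8, below every untreated library of those lines (123 to 179). Its rise in RPB2 and RPB6 (0.54 and 0.56) was not called with total counts (−0.22 and 0.02) and was a fall with mitochondrial scaling.

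Btg2 (chr1:134075170-134079120, minus strand), a short-lived antiproliferative mRNA and p53 target, moved the other way. It went from 8.21 and 7.44 CPM to 180 and 164 in RPB1, from 5.71 and 6.98 to 173 and 168 in RPB5 and from 11.9 and 10.5 to 170 and 174 in RPB8. It was at 11.7 and 13 CPM in untreated RPB2 and 13.9 and 12.2 in IAA, which overlap in range, and at 8.39 and 8.53 in untreated RPB6 and 4.4 and 3.56 in IAA. All 6 treated libraries of RPB1, RPB5 and RPB8 thus stood above every other library. The log2 rise was 4.45, 4.73 and 3.94 in those lines, with no change called in RPB2 (0.07, edgeR adjusted p = 0.795) and a fall in RPB6 (−1.08, 0.00043). With total counts Btg2 fell in RPB2 as well (−0.68).

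**Figure D2:**
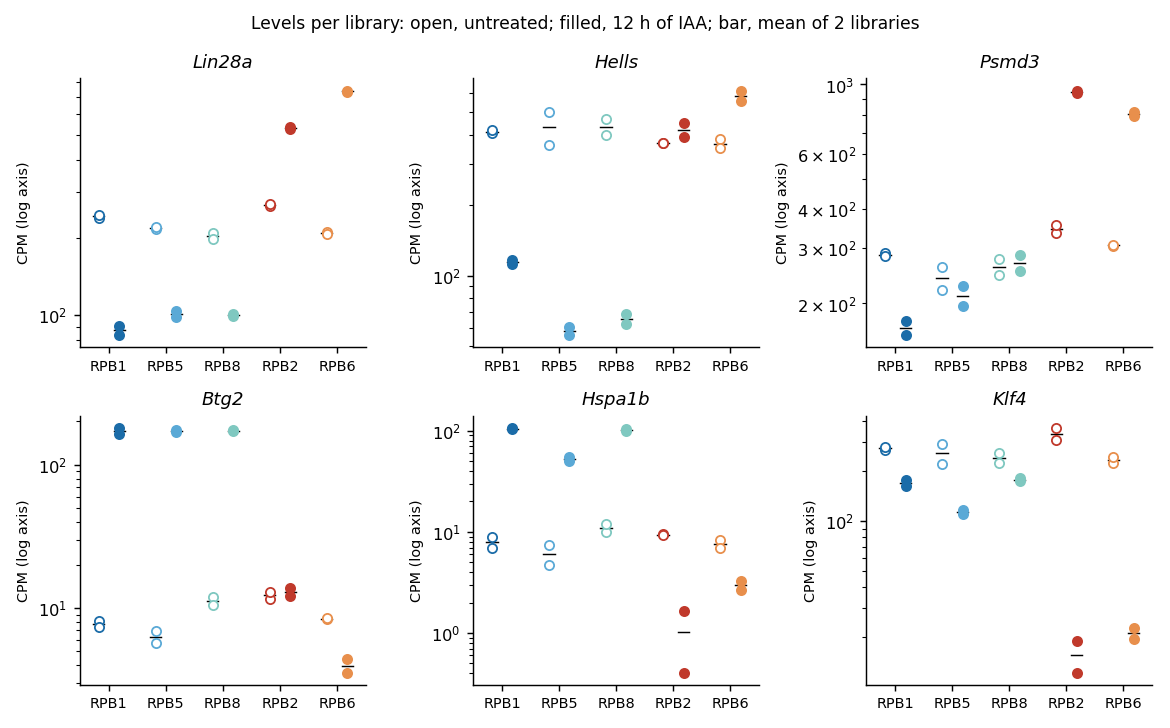
The levels of 6 genes named in the text are plotted in CPM on a log axis for every untreated (open) and IAA (filled) library of the 5 lines, 1 point per library with a bar at the mean. Lin28a is higher in IAA in RPB2 and RPB6 and lower in RPB1, RPB5 and RPB8, while Btg2 is at 164 to 180 CPM in the treated libraries of those 3 lines and at 3.56 to 13.9 CPM in all others, levels that are on the TMM scale.

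Hspa1a and Hspa1b, adjacent genes of the stress-inducible chaperone HSP70, had among the most negative differences, and their promoters are printed because they are nearly the same sequence. From RefSeq GRCm38.p6, the 150 bases before each start are given 5′ to 3′ on the gene's strand, with capitals marking the heat shock element searched for, GAANNTTC or TTCNNGAA, each of which reads the same on both strands. Hspe1, a mitochondrial chaperone with a positive difference, is shown beside them.
Hspa1a: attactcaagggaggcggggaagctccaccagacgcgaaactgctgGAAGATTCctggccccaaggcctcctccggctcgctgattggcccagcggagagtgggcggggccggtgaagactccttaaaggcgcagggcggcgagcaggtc
Hspa1b: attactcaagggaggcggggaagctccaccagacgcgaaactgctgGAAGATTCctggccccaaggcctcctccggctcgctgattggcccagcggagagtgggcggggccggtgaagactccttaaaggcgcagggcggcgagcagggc
Hspe1: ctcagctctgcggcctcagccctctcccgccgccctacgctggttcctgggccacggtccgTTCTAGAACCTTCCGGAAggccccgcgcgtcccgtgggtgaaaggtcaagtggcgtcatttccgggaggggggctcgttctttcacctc
These are chr17:34972157-34972306 (minus strand), chr17:34959239-34959388 (minus strand) and chr1:55087998-55088147 (plus strand). The first and second are identical at 149 of 150 positions. The element occurred in 7.73% of all 32851 promoter windows of this length. Per gene, where a match in any promoter of the gene counts, it occurred in 6.93% of 11531 tested genes. By that count it was in 4 of the 12 heat shock list members with a promoter and a negative difference (33.3%) and in 6 of the 16 with a positive one (37.5%). The match was thus present on both sides of the comparison, and a match is a description of the letters only.

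Hspa1a was at 1.49 and 2.15 CPM in untreated RPB1 and 111 and 101 in IAA, at 0.394 and 0.607 in RPB5 and 49.5 and 48.1 in IAA, and at 2.78 and 2.74 in RPB8 and 98.7 and 104 in IAA. It was at 1.27 and 1.92 CPM in untreated RPB2 and 1.23 and 0.406 in IAA, and at 1.17 and 2.05 in untreated RPB6 and 0.293 and 0.594 in IAA. Hspa1b was at 106 and 104 CPM in RPB1, 55.1 and 50.6 in RPB5 and 100 and 104 in RPB8 in IAA, but at 1.64 and 0.406 in RPB2 and 2.64 and 3.27 in RPB6, from 4.72 to 12 in the 10 untreated libraries. Both genes were higher in every treated library of RPB1, RPB5 and RPB8 than in any other library. Hspa1b rose by 3.74, 3.08 and 3.22 in those lines and fell by 3.17 in RPB2 (edgeR adjusted p = 1.44e-07) and by 1.37 in RPB6 (0.000352). Since the genes are near-identical copies, how reads were divided between them is uncertain.

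Heat shock and chaperone genes were divided: the list of 34 tested members had a median difference of 1.12, with 22 higher and 12 lower, Hspa1a and Hspa1b among the latter. It rose in 20 and fell in 9 members in RPB2, rose in 20 and fell in 10 in RPB6, and fell in 20, 16 and 9 members in RPB1, RPB5 and RPB8, against 8, 9 and 17 that rose. The median was −0.47 over all genes tested and 0.0098 over those at a mean of 5 CPM or more. With total counts the list's median was 0.40, and with mitochondrial mRNAs it turned to −0.03, with a median of −1.13 in RPB6 and a lower one in RPB2. Dnajb1, the HSP40 partner of HSP70, was among the lower members: it was at 115 and 116 CPM in untreated RPB2 and 9.82 and 11 in IAA, and at 93.6 and 98.5 in untreated RPB6 and 13.8 and 16 in IAA. In the treated libraries of the other lines it was at 130 to 214 CPM, above their untreated range of 84.4 to 111.

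Short-lived mRNAs gave the most negative list. Of 51 tested immediate-early and other short-lived mRNAs, 0 were higher and 50 lower in the difference, with a median of −3.18, and the median stayed negative with total counts (−3.89) and mitochondrial mRNAs (−4.32). The list rose in 36, 34 and 40 members in RPB1, RPB5 and RPB8 and fell in 7, 9 and 5, while it fell in 38 and 36 members in RPB2 and RPB6 and rose in 7 and 4. Ier5, an immediate-early regulator of heat shock factor, was at 24.7 and 29.1 CPM in RPB1, 29.7 and 27.4 in RPB5 and 75.2 and 73.6 in RPB8 in IAA, at 1.23 and 0.406 in RPB2 and at 2.35 and 1.19 in RPB6. Its untreated levels were 1.17 to 4.53 CPM, so the treated libraries of the first 3 lines stood well above and those of RPB2 and RPB6 below their own untreated pairs. Atf3, a stress-induced transcription factor, rose in RPB1 (2.38) and RPB8 (2.01) and fell in RPB2 (−3.49) and RPB6 (−4.63), and in RPB5 it did not pass the test (0.28, edgeR adjusted p = 0.188).

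The p53 targets followed the same order. Of 30 tested, 3 were higher and 25 lower, with a median of −2.64 (−3.35 with total counts, −3.79 with mitochondrial mRNAs). They rose in 22, 22 and 20 members in RPB1, RPB5 and RPB8 and fell in 19 and 22 in RPB2 and RPB6, although with mitochondrial scaling their median was −0.44 in RPB8. Plk2, a kinase induced by p53, was an exception to that fall: it was at 7.28 and 9.18 CPM in untreated RPB2 and 12.3 and 16.7 in IAA, and at 5.2 and 2.37 in untreated RPB6 and 19.9 and 18.7 in IAA. In IAA it was at 228 and 225 CPM in RPB1, 200 and 181 in RPB5 and 675 and 684 in RPB8. The groups did not overlap in any line, and the rise in RPB2 (0.79) and RPB6 (2.36) was smaller than the 5.41 to 6.61 of the others, which gives a difference of −4.40 ± 0.24. With mitochondrial scaling RPB2 fell (−1.30) and RPB6 did not pass the test (0.49). Phlda3, a p53-induced inhibitor of Akt, fell in RPB2 (−3.84) and RPB6 (−0.79) and rose by 2.21 to 2.52 in RPB1, RPB5 and RPB8.

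**Figure D3:**
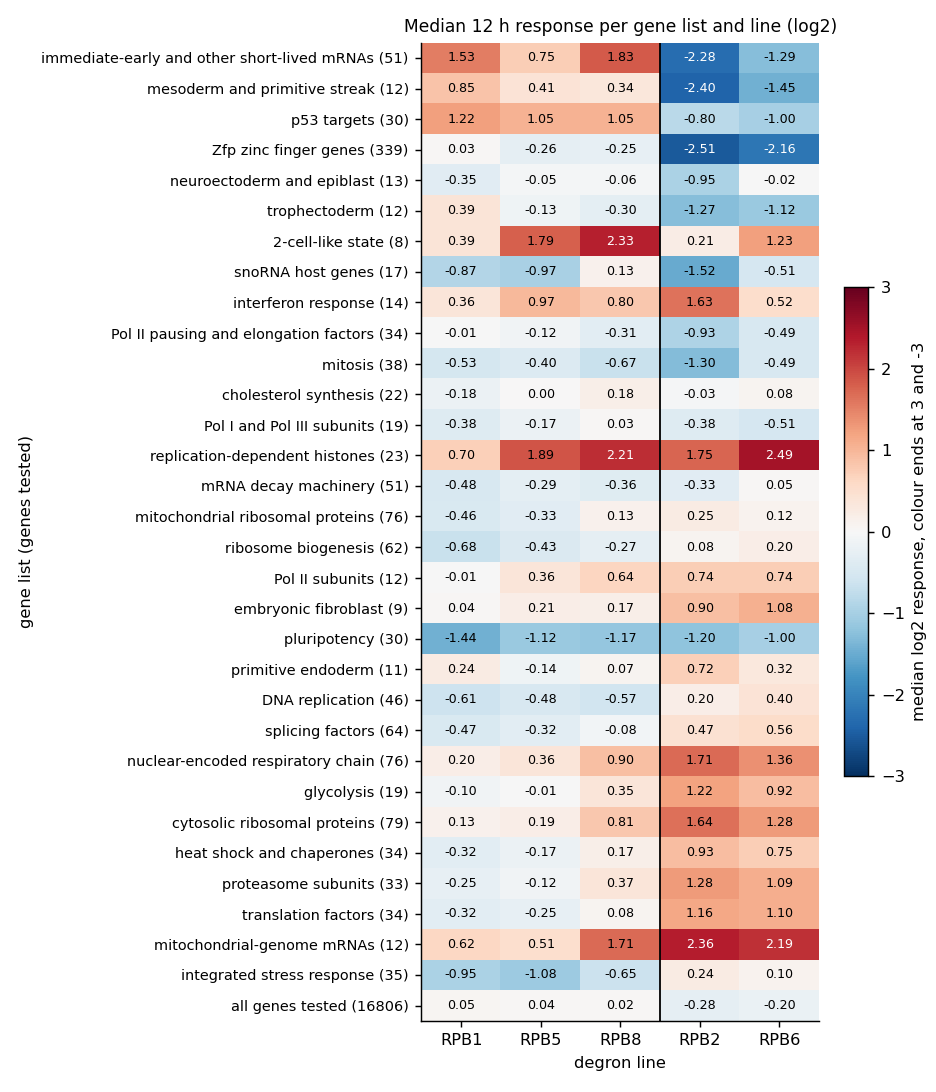
The grid has the gene lists in rows, ordered by their median difference, and the 5 degron lines in columns, and each cell gives the median log2 response on the TMM scale in red (above 0) or blue (below 0). The immediate-early mRNAs and p53 targets are red in RPB1, RPB5 and RPB8 and blue in RPB2 and RPB6, and the ribosomal protein, respiratory chain and proteasome lists are reddest in RPB2 and RPB6, where their medians turn negative with mitochondrial scaling.

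Housekeeping groups had positive differences whose sign rested on the scaling. Of 79 cytosolic ribosomal protein genes 76 were higher and 1 lower, with a median of 1.07 (0.36 with total counts, −0.06 with mitochondrial mRNAs). They rose in 77 members in RPB2, 77 in RPB6 and 77 in RPB8, and in 27 in RPB1 and 36 in RPB5, but with mitochondrial scaling the median was −0.47 in RPB2, −0.60 in RPB6 and −0.68 in RPB8. Rpl7a was at 1106 and 1157 CPM in untreated RPB2 and 3496 and 3558 in IAA, and at 952 and 951 in untreated RPB6 and 2375 and 2463 in IAA. In the treated libraries of the other 3 lines it was at 831 to 1304 CPM, which overlaps their untreated range of 809 to 1062. Rps10, the 1 lower member, was at 6.49 to 14.4 CPM untreated and at 2.04 and 3.25 in RPB2 in IAA. That level was far below that of Rpl7a. How reads of overlapping or duplicated genes were counted is not given, so its direction is uncertain.

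Genes of energy metabolism moved with them. Of 76 nuclear-encoded respiratory chain genes 74 were higher and 0 lower, with a median of 1.01 that turned to −0.12 with mitochondrial scaling. All 76 rose in RPB2 and all 76 in RPB6, against 35 in RPB1, 48 in RPB5 and 67 in RPB8, but with mitochondrial scaling the median was negative in all 5 lines (−0.14 to −0.60). Ndufs1, a core subunit of complex I, went from 146 and 149 CPM to 299 and 282 in RPB2 and from 148 and 140 to 315 and 281 in RPB6, and from 147 to 161 CPM to 84.3 to 106 over the libraries of the other 3 lines. Of the 12 mitochondrial-genome mRNAs all 12 were higher (median 1.25), and the 12 rose in RPB2 and RPB6, 11 in RPB8, 9 in RPB1 and 6 in RPB5. Scaling to these mRNAs sets their median near 0 by construction (0.09). Of 19 glycolysis genes 16 were higher and 2 lower (median 1.03, −0.11 with mitochondrial scaling): Ldha, lactate dehydrogenase, rose on the TMM scale in RPB2 from 563 and 630 CPM to 1352 and 1352 and in RPB6 (0.94), and Slc2a1, the glucose transporter GLUT1, fell in all 5 lines, to 20.9 and 11 CPM in RPB2 and 17.3 and 19.3 in RPB6 and to 48 to 100 in the others.

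Most genes of the proteasome and of translation initiation and elongation had positive differences on the TMM scale. Of 33 proteasome subunit genes 30 were higher and 3 lower (median 1.14, and −0.01 with mitochondrial scaling), and 29 and 30 rose in RPB2 and RPB6 against 2 in RPB1, 3 in RPB5 and 22 in RPB8, with medians of −0.82 and −0.79 in RPB2 and RPB6 under mitochondrial scaling. Psmd3, a subunit of the proteasome lid, went from 335 and 357 CPM to 955 and 942 in RPB2 and from 305 and 308 to 794 and 819 in RPB6. It went from 289 and 283 CPM to 158 and 176 in RPB1, while its levels of 227 and 197 in RPB5 and 254 and 285 in RPB8 in IAA overlapped the untreated ones (221 and 262, 278 and 246). Its rise in RPB2 and RPB6 was 1.45 and 1.40, and −0.66 and −0.48 with mitochondrial scaling. Of 34 translation factors 30 were higher and 4 lower (median 1.15), with 25 risen in RPB2, 25 in RPB6, 2 in RPB1, 8 in RPB5 and 16 in RPB8. Eif4g2, a scaffold for initiation without the cap, was at 1139 and 1110 CPM in untreated RPB2 and 2759 and 2557 in IAA, and at 567 to 997 CPM in the treated libraries of RPB1, RPB5 and RPB8. These rises in RPB2 and RPB6 are on the TMM scale, and with mitochondrial scaling the median of the translation factors was −0.95 in RPB2 and −0.78 in RPB6.

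Pluripotency genes were split within the list. Of 30 tested, 17 were higher and 12 lower (median 0.74, and −0.41 with mitochondrial scaling), while most fell in every line: 24, 24 and 25 in RPB1, RPB5 and RPB8 and 20 and 19 in RPB2 and RPB6. Klf4 (chr4:55527143-55532466, minus strand), a transcription factor of the naive state, went from 362 and 307 CPM to 12.3 and 19.1 in RPB2 and from 225 and 242 to 22.9 and 19.6 in RPB6. It went from 268 and 280 to 177 and 163 in RPB1, from 220 and 290 to 116 and 110 in RPB5, and from 257 and 222 to 173 and 182 in RPB8. The fall was called in all 5 lines, with log2 changes of −4.41 in RPB2 (edgeR adjusted p = 2.62e-20) and −3.46 in RPB6 (1.54e-18) against −0.69, −1.17 and −0.43 in RPB1, RPB5 and RPB8 (0.0014 at most). Sox2, a partner of Oct4, was at 24.1 and 24.8 CPM in RPB2 and 51.9 and 44.5 in RPB6 in IAA, against 177 to 238 in the treated libraries of the others and 248 to 410 untreated.

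The zinc finger genes named Zfp gave the largest group with a negative difference. Of 339 tested, 14 were higher and 298 lower (median −2.25, −2.96 with total counts, −3.38 with mitochondrial mRNAs), and 285 and 294 fell in RPB2 and RPB6 against 107, 141 and 142 in RPB1, RPB5 and RPB8. Zfp105 was at 16.3 to 23.3 CPM in the 10 untreated libraries and at 10.6 to 15.2 in the treated libraries of RPB1, RPB5 and RPB8. In IAA it had 0 counts in both RPB2 libraries, which allows up to 0.612 CPM over the group at 3 counts, and was at 0.293 and 0.297 CPM in RPB6. With that floor its difference was −5.14 or lower. Zfp954 was at 8.19 to 11.6 CPM untreated, at 0.409 and 0 in RPB2 and 0.88 and 0.891 in RPB6 in IAA, and at 33.1 and 34.7 in RPB8 in IAA, where it rose (1.85). Members of this family share sequence, so counts of single members are uncertain.

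Genes that control transcription and RNA processing were mixed. Hexim1 (chr11:103116231-103119725, plus strand), an inhibitor of the elongation kinase P-TEFb, went from 62.5 and 58.5 CPM to 292 and 324 in RPB1, from 52.3 and 54.9 to 105 and 106 in RPB5 and from 63.9 and 66.5 to 532 and 533 in RPB8. It went from 84.1 and 102 CPM to 27.8 and 21.1 in RPB2 and from 49.1 and 49.7 to 29 and 31.8 in RPB6, so the treated groups did not overlap the untreated ones in any line and the sides moved apart. Mepce, the enzyme that caps 7SK RNA, fell from 71.9 and 69 CPM to 4.09 and 4.06 in RPB2 and from 56.5 and 54.8 to 16.7 and 16.3 in RPB6. Over the 34 pausing and elongation factors 10 were higher and 20 lower, with a median of −0.37. The median was −0.47 over all genes tested and 0.0098 over those at a mean of 5 CPM or more. Of 64 splicing factors 50 were higher and 10 lower (median 0.95, and −0.19 with mitochondrial scaling), and Clk1, a kinase of SR splicing proteins, was among the lower ones at 9 and 7.72 CPM in RPB2 and 15 and 16.6 in RPB6 in IAA against 63.2 to 154 in the other 16 libraries. Of 12 Pol II subunit genes 8 were higher and 1 lower (median 0.60, −0.12 with total counts and −0.55 with mitochondrial mRNAs), and of 19 genes of Pol I and Pol III subunits 8 were higher and 8 lower. Polr3f, a Pol III subunit, was at 2.45 and 1.22 CPM in RPB2 and 7.04 and 5.64 in RPB6 in IAA and at 36.1 to 105 in the other libraries.

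The cell cycle lists differed from each other. Of 46 DNA replication genes 30 were higher and 13 lower (median 0.94, −0.21 with mitochondrial scaling), and of 38 mitosis genes 12 were higher and 17 lower (median −0.17). The mitosis counts lay near the shares over all genes tested, 31.2% higher and 40.1% lower. At a mean of 5 CPM or more the shares were 42.1% and 41.6%. Cdt1, the replication licensing factor, went from 269 and 326 CPM to 12.7 and 18.3 in RPB2 and from 298 and 296 to 31.4 and 19.9 in RPB6, and was at 139 to 221 in the treated libraries of the other lines. Aurka, the mitotic kinase Aurora A, was at 32.3 and 23.2 CPM in RPB2 and 29.6 and 26.7 in RPB6 in IAA and at 118 to 215 in the other 16 libraries. Of 23 tested replication-dependent histone genes 8 were higher and 4 lower. Histones rose in 10, 13 and 13 members in RPB1, RPB5 and RPB8, in 12 in RPB2 and in 18 in RPB6, and 0 fell in any of the 5, whereas with mitochondrial scaling 0 rose and 3 fell in RPB2 and 4 rose and 1 fell in RPB6. Most mRNA of these genes has no poly(A) tail, so poly(A) libraries count it only in part. The 23 genes together summed to 21.8 to 44.0 CPM untreated and 80.2 to 135 in IAA, and total histone mRNA was not measured.

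Of 35 tested genes of the integrated stress response 21 were higher and 10 lower, with a median of 1.38 (0.66 with total counts, 0.23 with mitochondrial mRNAs). They fell in 27, 29 and 25 members in RPB1, RPB5 and RPB8 and were divided in RPB2 (17 up, 15 down) and RPB6 (16 up, 13 down) on the TMM scale. With total counts 6 rose and 19 fell in RPB2 and 9 rose and 18 fell in RPB6, and with mitochondrial mRNAs 0 rose and 35 fell in both. Sesn2, an inhibitor of mTORC1, belonged to the lower members, at 14.3 and 14.2 CPM in RPB2 and 12.6 and 6.53 in RPB6 in IAA against 98.9 to 149 in the other 16 libraries. The remaining lists had medians nearer 0 or small counts. Of all genes 31.2% were higher and 40.1% lower, and at a mean of 5 CPM or more 42.1% and 41.6%. Beside these shares, ribosome biogenesis had 42 higher and 15 lower of 62, mitochondrial ribosomal proteins 46 and 19 of 76, mRNA decay 27 and 16 of 51, cholesterol synthesis 10 and 9 of 22, snoRNA host genes 4 and 9 of 17 and interferon response 5 and 5 of 14. The medians of the first 4 of these (0.53, 0.47, 0.28 and 0.06) turned negative with total counts and with mitochondrial mRNAs.

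The 7SK RNA, Rn7sk, had the highest difference among named genes (5.19 ± 0.76), and it rests mainly on RPB6. It was at 145 and 140 CPM in RPB6 in IAA, at 11.9 and 8.53 in RPB2, at 8.19 and 6.65 in RPB5 and at 2.41 or less in each of the other libraries. Pol III makes 7SK without a poly(A) tail, so poly(A) libraries count it only in part. Enox1 was another gene carried by RPB6: it rose there (1.52) from 12.2 and 15.2 CPM to 35.8 and 43, and fell in RPB2 (−2.17) as in RPB1, RPB5 and RPB8 (−3.68 to −4.32).

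The structure of the genes varied with the difference. Among 10461 protein-coding genes whose mean level reached 5 CPM, the median difference was −2.62 for the 223 genes with 1 exon, −2.04 for 399 with 2 exons, −0.91 for 1318 with 3 to 4, −0.13 for 2140 with 5 to 7, 0.12 for 2697 with 8 to 12, 0.20 for 2170 with 13 to 20 and 0.43 for 1514 with 21 or more. Without histone and Zfp genes the medians were −2.63 for 1 exon and −1.98 for 2, the only bins recomputed so. Without the filter on level the bins of 8 to 12, 13 to 20 and 21 or more exons were at −0.13, −0.0029 and 0.25. Among the genes of the shortest span the order did not hold throughout: the median was 0.46 for 5 to 7 exons, 0.37 for 8 to 12 and 0.32 for 13 to 20. It came from both sides: for genes with 1 exon the median response was −1.50 in RPB2 and −1.08 in RPB6 but 0.67 in RPB1, 0.42 in RPB5 and 1.19 in RPB8, and for genes with 21 or more it was −0.15 in RPB2 and in RPB6 but −0.45, −0.44 and −0.77 in the others. The median also went down over quintiles of 3′ UTR length, from 0.59 in the shortest to −0.56 in the longest, and over quintiles of transcript length, from 0.69 to −0.40. These gene properties overlap and were not separated from each other, and mRNA stability was not measured.

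**Figure D4:**
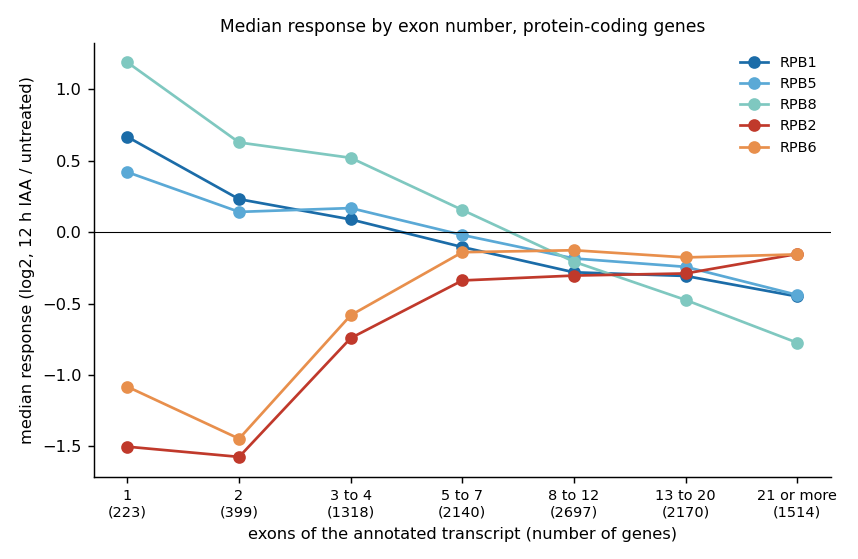
The median log2 response on the TMM scale is plotted against the number of exons of a gene, for each of the 5 lines, over protein-coding genes whose mean level reached 5 CPM. For genes with 1 exon RPB2 and RPB6 lie at −1.50 and −1.08 and RPB1, RPB5 and RPB8 between 0.42 and 1.19, while for genes with 8 to 12 exons all 5 lines lie between −0.13 and −0.30, and another scaling would move all points of a line alike.

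Genes silent in untreated cells had higher summed levels in IAA in all 5 lines, with TMM and with total counts. Over 3982 genes with no count in 16 untreated libraries of the lines outside the comparison, the summed level in IAA was 482 ± 11.6 CPM (SD, n = 2) in RPB1, 156 ± 11.5 in RPB5, 119 ± 4.74 in RPB8, 107 ± 4.24 in RPB2 and 24.3 ± 2.92 in RPB6. The untreated groups were at 5.76 to 14.7 CPM, below every treated library. RPB2 and RPB8 lay close together, at 104 to 110 and 116 to 122 CPM. The distance between them depended on the scaling: with total counts the sums were 67.0 ± 3.48 in RPB2 and 116 ± 3.96 in RPB8, with 601 ± 13.6 in RPB1, 183 ± 18.6 in RPB5 and 18.3 ± 2.29 in RPB6. In RPB6 the sums rest on 32 and 39 counts untreated and 90 and 75 in IAA. The sums were not scaled to mitochondrial mRNAs, whose share in RPB6 rose from 1.10% and 1.04% untreated to 2.73% and 2.66% in IAA.

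Lines on the same side also differed from each other. They were put together for likeness in the same 12 h values, so the counts describe lines chosen in that way. The response of RPB2 differed from that of RPB6 in 2700 genes (16.1%), 971 higher and 1729 lower in RPB2, but the greater number was higher with RLE (1792 higher, 1287 lower) and with DESeq2 (1488 and 1088). RPB1 differed from RPB5 in 3585 genes (21.3%), RPB1 from RPB8 in 7151 (42.6%) and RPB5 from RPB8 in 5454 (32.5%). Zfp786 differed most upward between RPB2 and RPB6 among named genes with counts in both: it was at 6.13 and 4.88 CPM in RPB2 and 0.293 and 0.297 in RPB6 in IAA, a difference of 3.99 ± 0.75 (edgeR adjusted p = 0.000264). Fjx1, Otud1 and Igtp differed downward, with 0 counts in RPB2 in IAA. The count for RPB2 against RPB6 rests in part on single libraries: it was 1745 without RPB2 IAA replicate 1 and 1666 without replicate 2.

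Among RPB1, RPB5 and RPB8, Phyhip, expressed mainly in brain, was at 65.1 and 75.9 CPM in RPB1 and 1.71 and 2.74 in RPB5 in IAA (difference 4.50 ± 0.44, edgeR adjusted p = 1.32e-08). Ndrg1, a hypoxia-induced gene, rose in RPB1 (2.93) and fell in RPB5 (−1.23), a difference of 4.16 ± 0.32. Atf7ip2 was at 62.8 and 53.8 CPM in RPB1 and 5.34 and 4.83 in RPB8 in IAA (4.78 ± 0.30, adjusted p = 1.57e-13). Gon7, a subunit of the KEOPS complex that modifies tRNA, was higher in RPB8 (69.1 and 67 CPM) than in RPB5 (5.52 and 7.43) in IAA, and the difference of RPB5 minus RPB8 was −3.28 ± 0.29 (adjusted p = 8.97e-10). RPB8 also departed from RPB1 and RPB5 by gene length: over quintiles of gene span its median response went from 0.66 in the shortest to −1.04 in the longest, compared with 0.07 to −0.55 in RPB1 and 0.17 to −0.54 in RPB5.

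RPB1 and RPB6 were also sequenced at 0 h and 1 h of IAA, in a set of 12 libraries with RPB3 (8598431 to 13281252 counts), which tests 1 line of each side independently of the 12 h values. How the libraries of that set were made is not stated in the labels, so it was fitted alone. Of 15658 genes tested, 1723 rose (11%) and 2171 fell (13.9%) in RPB1, 147 rose (0.939%) and 94 fell (0.6%) in RPB6, and 1 rose (0.00639%) and 55 fell (0.351%) in RPB3. The response of RPB6 was higher than that of RPB1 in 79 genes (0.505%) and lower in 10 (0.0639%). These 89 calls fell to 34 without RPB1 0 h replicate 1, to 32 without RPB1 1 h replicate 1 or 2, to 50 and 53 without RPB6 0 h replicate 1 or 2 and to 42 without RPB6 1 h replicate 2. Of 5993 genes lower in the 12 h difference and tested at 1 h, 56 were higher in RPB6 and 6 lower (median 0.052). Of 4954 genes higher at 12 h, 9 were higher and 2 lower (median −0.031). In both sets most calls at 1 h were thus higher in RPB6, as over all genes (79 higher, 10 lower). With calls so one-sided, these counts do not show whether the 1 h difference followed or opposed the 12 h one.

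Among the genes named at 1 h, Kcnq1ot1, an imprinted nuclear noncoding RNA, went from 38.4 and 35.9 CPM to 8.29 and 9.65 in RPB1, while RPB6 was at 39.7 and 32.5 at 0 h and at 31.7 and 42.7 at 1 h, which overlap. The difference was 2.08 ± 0.22 (edgeR adjusted p = 2.56e-05). Hexim1 was at 50.6 and 49.4 CPM at 0 h and 78.5 and 76.0 at 1 h in RPB1, and at 66.6 and 57.8 at 0 h and 61.8 and 56.1 at 1 h in RPB6 (difference −0.70 ± 0.13, adjusted p = 0.0148), the same direction as at 12 h. Zfp105 fell at 1 h in RPB1 and differed by 1.13 (adjusted p = 0.00294), the opposite of its 12 h direction. Lin28a did not differ between the lines at 1 h by this test (0.0046 ± 0.10, adjusted p = 0.995), nor did Btg2 (−0.46 ± 0.25, 0.644). Of the 12 h genes tested here, the 2046 that fell in RPB1 at 1 h had a median 12 h difference of −1.08 and the 1708 that rose one of 0.66. The 91 that fell in RPB6 at 1 h had a median of −1.84 and the 145 that rose one of 1.01. The median over all genes was −0.47 (0.0098 at a mean of 5 CPM or more). The 53 that fell in RPB3, a line outside the comparison, had one of −1.40.

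Wild-type cells and 7 more degron lines were sequenced at 12 h, in a fit of 52 libraries and 17928 genes that served as a check on lines the sides did not use. Of all genes, the share that rose and fell was 0.803% and 0.842% in wild type, 24.4% and 23.3% in RPB3, 1.13% and 0.948% in RPB4, 20.2% and 21.1% in RPB7 and 16.8% and 18% in RPB9. It was 18.2% and 21.2% for RPB10, 10.6% and 13.1% for RPB11 and 2.14% and 2.65% for RPB12. The 451 genes up in RPB2 and RPB6 and down in the other 3 fell in 80.7% of cases in RPB3, 70.7% in RPB9, 67.4% in RPB10, 63.2% in RPB7 and 59.4% in RPB11, and rose in 1.11%, 1.55%, 4.66%, 3.55% and 0.665%. The 565 genes of the opposite kind rose in 75.4% in RPB3, 72.4% in RPB9, 59.6% in RPB7, 58.6% in RPB10 and 44.4% in RPB11. In these 5 lines the genes thus moved, by count, as in RPB1, RPB5 and RPB8. In RPB4, RPB12 and wild type at most 9.31% of either set moved in that direction.

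Single genes followed the same division in part. In RPB3, RPB7, RPB9, RPB10 and RPB11, in turn, Btg2 rose by 3.11, 1.49, 1.94, 3.22 and 1.75, and Lin28a fell by 1.54, 0.61, 1.29, 1.01 and 0.77 (all adjusted p at most 4.98e-09). Hspa1b rose in these 5 lines by 0.97 to 2.39, and Hells fell by 0.59 to 2.25. Lin28a also fell, by less, in RPB4 (−0.43, edgeR adjusted p = 0.000211) and RPB12 (−0.38, 0.000323). Klf4 was not uniform: it fell in RPB7 (−0.88), rose in RPB10 (0.34) and RPB11 (0.84), and did not pass the test in RPB3 (−0.03) and RPB9 (−0.02). Across genes, Pearson's r of the response with the mean of RPB1, RPB5 and RPB8 was 0.45 to 0.73 in RPB3, RPB7, RPB9, RPB10 and RPB11, and with the mean of RPB2 and RPB6 it was 0.07 to 0.17.

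**Figure D5:**
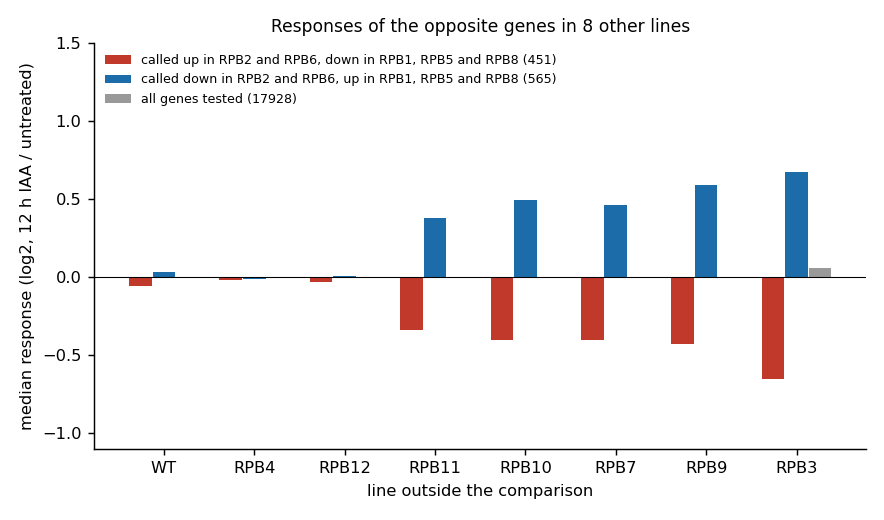
For wild type and the 7 degron lines outside the comparison the median log2 response on the TMM scale is plotted for the 451 genes up in RPB2 and RPB6 and down in RPB1, RPB5 and RPB8, for the 565 genes of the opposite kind and for all genes. RPB3, RPB7, RPB9, RPB10 and RPB11, which took no part in choosing the genes, have negative medians for the first set (−0.34 to −0.65) and positive ones for the second (0.38 to 0.67), and wild type, RPB4 and RPB12 lie near 0.

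Markers of other cell types were measured beside these results. Summed levels cover the tested members of each list and are on the TMM scale only. Of all genes tested 31.2% were higher and 40.1% lower, and at a mean of 5 CPM or more 42.1% and 41.6%. Nothing is read from the marker counts, which rest on few genes. All 30 pluripotency genes were detected, with a summed level of 9287 to 12340 CPM untreated, 16684 to 17379 in RPB2 and 12329 to 12567 in RPB6 in IAA, and 5408 to 7543 in the other treated groups. Of 17 primitive endoderm markers 11 were tested, with 6 higher and 2 lower in the difference (median 0.80, −0.35 with mitochondrial scaling). Their sum was 1225 to 1604 CPM untreated and, in IAA, 3846 to 3907 in RPB2, 2979 to 3110 in RPB6, 2329 to 2378 in RPB8, 1432 to 1474 in RPB5 and 1125 to 1142 in RPB1. Of 20 embryonic fibroblast markers 9 were tested and 2 had 0 counts in all 20 libraries. The sum of the 9 was 765 to 1405 CPM untreated, 1585 to 1631 in RPB2, 1824 to 1919 in RPB6 and 592 to 831 in the other treated groups. Their median response was 0.14 in RPB2 and 0.54 in RPB6 with total counts, and −1.23 and −0.79 with mitochondrial scaling. Of 16 markers of the 2-cell-like state 15 matched an annotated gene and 8 were tested, with 0 higher and 1 lower. The 8 summed to 1.92 to 19.7 CPM untreated, 1.64 to 4.47 in RPB2 and 38.1 to 41.0 in RPB6 in IAA, and 14.2 to 58.5 in the other treated groups. Mesoderm markers (8 lower and 2 higher of 12 tested) summed to 78.9 to 85.8 CPM in RPB2 and RPB6 in IAA and 146 to 159 in the other treated groups, from 147 to 239 untreated. Neuroectoderm markers had 6 lower and 3 higher of 13 tested. They summed to 361 to 492 CPM untreated, 637 to 871 in RPB2 and RPB6 in IAA and 338 to 503 in the other treated groups. Their median response was −1.70 in RPB2 and −0.55 in RPB6 with total counts. Trophectoderm markers had 7 lower and 1 higher of 12. They summed to 188 to 220 CPM untreated, 98.8 to 190 in RPB2 and RPB6 in IAA and 108 to 177 in the other treated groups. No other matched marker of these lists was at 0 in all 20 libraries. The part of other cell types in the differences above was not tested.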

How the data were processed

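Poly(A) RNA sequencing of 5 degron lines, untreated and after 12 h of IAA, was analysed from the table of raw counts per gene that the authors deposited, whole numbers for 55335 genes. The submitters' processing notes name STAR, featureCounts, cutadapt 1.18, DESeq2, Bowtie2, deepTools and SAMtools and the builds mm10 and dm6. Their roles, the annotation and the strand setting are not given there, so overlapping, antisense and duplicated genes are uncertain. Names and exons came from GENCODE M21 (55154 genes named); 4 columns that match no sample were not used.

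Counts were fitted with edgeR 4.0.16 in R 4.3.3 (glmQLFit and glmQLFTest, two-sided, TMM, filterByExpr, Benjamini-Hochberg threshold 0.05) on 20 libraries with 10 coefficients, 1 per line and treatment (10 residual degrees of freedom, 99.7% of counts kept, median biological coefficient of variation 8.47%). Fits of 52 libraries and of the 12 libraries at 0 h and 1 h were separate. Groups at 0 were set to a floor of 3 counts over the group, which covers counting error only. Alternatives were RLE, total-count and mitochondrial mRNA scaling, no filter, a filter at a mean of 5 CPM, DESeq2 1.42.0, all 52 libraries, a replicate block, and leaving out each library or line. Steps were tested on simulated counts in which few genes changed, unlike these data, so the choice of scaling was not checked there.

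Genes were named by rule: the 12 highest and 12 lowest differences at a mean of 5 CPM or more with both lines beyond the other 3, the 6 largest opposite genes in each direction, up to 4 members of each list, the tagged genes, the 4 highest and lowest per pair of lines and the 5 at 1 h, with model-name symbols left out and not all printed. The lines, lists and rules were chosen with earlier results of these data known. Figures were drawn with matplotlib 3.10.9 in Python 3.11.15.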

Additional observations from a re-analysis of the deposited data

Results flagged for a closer look

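The responses of lines placed on the same side differed from each other by the direct test of the difference. RPB2 and RPB6 differed in 2700 genes, RPB1 and RPB5 in 3585, RPB1 and RPB8 in 7151 and RPB5 and RPB8 in 5454 (edgeR, 16806 genes tested). The largest of these counts, for RPB1 against RPB8, lay within a side that was formed because its lines looked alike, and genes such as Atf7ip2 (62.8 and 53.8 CPM in RPB1 and 5.34 and 4.83 in RPB8 in IAA) differed strongly there. At 1 h of IAA, RPB6 and RPB1 differed in 89 genes of 15658 tested.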

How the results depend on the processing

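The number of genes called stayed within 1.5 times of the values given in 360 of the counts recomputed and moved further in 30, and differences of named genes kept sign and call in 1097 of those recomputed, lost the call in 20 and changed sign in 5. Differences of named genes at 1 h kept the call in 98 and lost it in 19, and list medians moved by less than the spread between replicates in 734, further in 251 and changed sign in 37. With total counts 2809 genes were higher in RPB2 and RPB6. With mitochondrial mRNAs 792 were higher and 10779 lower, RPB1 differed from RPB5 in 1670 genes and RPB5 from RPB8 in 8947. Without a filter 173 genes differed at 1 h. Leaving out 1 library in turn gave 11607 to 12198 genes in the difference between the sides (5086 to 5319 higher, 6459 to 6884 lower), 10559 to 12465 in RPB1, 9857 to 11243 in RPB2, 8918 to 10692 in RPB5, 9497 to 10961 in RPB6, 9403 to 11218 in RPB8, 1666 to 3234 for RPB2 against RPB6, 2433 to 4236 for RPB1 against RPB5, 5971 to 7671 for RPB1 against RPB8, 4306 to 5674 for RPB5 against RPB8 and 32 to 75 at 1 h, fewer samples in each case. With a replicate block the counts were 11707 (5177 higher, 6530 lower) for the sides, 11160, 10718, 9921, 10416 and 10436 for RPB1, RPB2, RPB5, RPB6 and RPB8, 2399 for RPB2 against RPB6 and 3197, 6768 and 5109 for the pairs of the other side, and 122 at 1 h; the deviations of same-numbered libraries had correlations of −0.20 to 0.04 across treatments, so the numbers were not taken as pairs.

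Medians of lists that changed sign were, with total counts, mitochondrial ribosomal proteins −0.24, ribosome biogenesis −0.18, mRNA decay −0.44, subunits of Pol II −0.12, Pol I and Pol III −0.62, histones −0.53 and cholesterol synthesis −0.65, and the gene Polr2h −0.45. With mitochondrial mRNAs they were ribosomal proteins −0.065, mitochondrial ribosomal proteins −0.67, respiratory chain −0.12, glycolysis −0.11, proteasome −0.0054, heat shock −0.033, pluripotency −0.41, ribosome biogenesis −0.61, splicing −0.19, mRNA decay −0.88, subunits of Pol II −0.55, Pol I and Pol III −1.05, histones −0.88, DNA replication −0.21, cholesterol −1.08, primitive endoderm −0.35, fibroblast −0.42, and the genes Polr2b −0.37, Polr2e −0.093, Polr2f −0.058 and Polr2h −0.88. With the filter at a mean of 5 CPM, Pol I and Pol III turned to −0.050, histones to −0.71 and interferon to 0.37, over fewer genes. The histone median ran from −0.020 without RPB2 untreated replicate 1 to 1.00 without RPB6 untreated replicate 1. Without the line RPB1, Pol I and Pol III turned to −0.32 and cholesterol to −0.068, without RPB2 pausing factors turned to 0.063, mitosis to 0.14, snoRNA hosts to 0.38 and the 2-cell-like list to 0.019, without RPB5 Pol I and Pol III turned to −0.043, and without RPB6 histones turned to −1.04 and interferon to 0.49. Where no construction is given, the cause was not tested. At 3399838 to 6998312 counts a library, genes below about 5 CPM rest on few reads.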
